A study of Homo sapiens with 12 samples.

Results

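The mitochondrial proteases described here are 9 nuclear genes, LONP1, CLPP, CLPX, YME1L1, AFG3L2, SPG7, HTRA2, PMPCA and PMPCB, found by symbol among the 21446 gene symbols of the expression tables. The rule that defines them is a functional family and uses no measured value, although they were chosen with earlier results of these data known. RNA was sequenced from LN229, an established human glioblastoma cell line labelled IDH wildtype, in 12 libraries. The 6 control libraries came from cells that the labels call untreated and the study calls vehicle-treated, and the 6 metformin libraries from cells given 100 mM metformin for 5 h. Both groups were grown in the same serum-containing medium. The study describes the 12 libraries as independent experiments on this single cell line, and the tests below treat them so. The controls were not evenly spaced, by the chi-square per degree of freedom of their exon counts. Control replicates 1, 5 and 6 differed from each other by 2.36 to 2.83. Each of them differed from control replicate 3 by 46.5 to 47.7. Whether some libraries shared a culture or a preparation was not tested.

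Mitochondria import most of their proteins with a presequence that the mitochondrial processing peptidase removes in the matrix. Damaged or surplus proteins are then degraded by ATP-dependent proteases, namely LONP1 and ClpXP in the matrix and the AAA metalloproteases of the inner membrane, whose active sites face the matrix (m-AAA) or the intermembrane space (i-AAA). These enzymes also cut regulatory proteins, among them factors of mitochondrial DNA maintenance, fusion and lipid transport. Metformin is a biguanide known for inhibiting respiratory complex I.

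The reads assigned to exons numbered 19583535 to 21836186 in the control libraries and 14331617 to 19516144 in the metformin libraries. Metformin replicate 1 stood apart, with the lowest exon total and 38.1% of exon reads spanning a junction, against 44.7% to 48.1% in the other 11 libraries, so results that rest on it are given with and without it. Metformin replicate 2 was the next lowest of its group, with 45.7% of exon reads spanning a junction and 4.87% of gene reads in introns. Metformin replicates 3 to 6 were at 47.5% to 48.1% and 6.53% to 7.48%, so the group without replicate 1 was not uniform. Of 8 markers of glioma cells, 6 were expressed at a mean of at least 1 TPM (transcripts scaled to a fixed total per library), while SOX2 and GFAP lay at or near 0. Summed leukocyte markers were 0 to 0.328 TPM in control and 1.30 to 5.57 TPM in metformin libraries, almost wholly through ITGAM, with the defining marker PTPRC at 0.0696 TPM or less. Summed neuron markers were 8.37 to 11.1 TPM in control and 4.07 to 7.65 TPM in metformin libraries, from RBFOX3 and GAD1. Endothelial and epithelial markers summed to at most 1.20 TPM, and the part of these marker genes in the results below was not tested.

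The 2 members that fell furthest relative to the median gene were CLPX and AFG3L2, and their promoters are shown for that reason. RefSeq promoters (GRCh38.p14, from 250 bases before to 50 bases after a start) were matched for 7 of the 9 members, with 10 starts. A set of 5 motifs was searched on both strands, and letters that match one are in capitals. The CLPX promoter (chr15:65185293-65185592, minus strand) held none of the 5, and the AFG3L2 promoter (chr18:12377178-12377477, minus strand) held 1 CRE core.
CLPX: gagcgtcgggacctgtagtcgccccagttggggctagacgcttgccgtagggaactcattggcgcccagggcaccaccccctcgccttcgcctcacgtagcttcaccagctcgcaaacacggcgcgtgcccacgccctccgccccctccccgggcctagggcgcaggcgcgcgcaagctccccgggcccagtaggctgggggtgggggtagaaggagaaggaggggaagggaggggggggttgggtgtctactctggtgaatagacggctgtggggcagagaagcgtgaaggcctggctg
AFG3L2: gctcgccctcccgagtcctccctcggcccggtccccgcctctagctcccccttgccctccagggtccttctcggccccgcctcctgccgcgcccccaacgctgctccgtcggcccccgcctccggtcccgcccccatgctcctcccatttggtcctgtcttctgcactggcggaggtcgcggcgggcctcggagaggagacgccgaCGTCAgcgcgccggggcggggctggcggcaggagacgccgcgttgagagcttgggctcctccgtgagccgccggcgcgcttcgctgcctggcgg
The CRE core (TGACG), the core of the site known for CREB and ATF factors, was in promoters of 4 of the 7 members (AFG3L2, LONP1, PMPCA and SPG7) and in 24.6% of 35116 RefSeq promoters of this length. The ETS motif (CCGGAAG) was in promoters of 3 members (LONP1, HTRA2 and PMPCB) and in 10.3% of all promoters. LONP1 alone of the 7 held the NRF-1 core (GCATGC, 7.22% of all) and the E-box (CACGTG, 7.26%), which shares letters with a CRE core there. PMPCB alone held the C/EBP-ATF motif (TGATGNAA, 3.62%). A member was counted if any of its starts held the motif, whereas the percentages are of single promoters. The 2 are therefore not alike for members with more than 1 start. A match is a run of letters and not a measured binding site.

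In control cells the 9 genes spanned almost an order of magnitude in TPM, a level per transcript length. PMPCA, the alpha subunit of the processing peptidase, was highest at 136 ± 3.75 TPM (mean ± SD, n = 6, as for all levels below). AFG3L2, an m-AAA subunit, came next at 124 ± 8.60 TPM, and the ranges of these 2 genes overlapped. LONP1 (85.5 ± 1.95 TPM) and CLPP (83.1 ± 3.45 TPM) overlapped each other and lay below them. HTRA2 (56.5 ± 3.07 TPM), PMPCB (50.2 ± 2.04 TPM) and YME1L1 (49.1 ± 5.31 TPM) formed another overlapping set. CLPX at 29.1 ± 3.01 TPM and SPG7 at 15.4 ± 0.883 TPM lay apart from every other member. The level of SPG7 was computed over 13155 bases of exon from 48 annotated transcripts, the longest exon length of the 9 members. With metformin, PMPCA was still the highest and CLPX and SPG7 the lowest, but ranges of neighbours overlapped everywhere except between PMPCB and CLPX.

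The comparison of metformin with control cells asked which protease transcripts moved. In 7 members all metformin libraries lay below all controls, which was also the case for 37.3% of the 11306 genes with a mean of at least 1 TPM, while 4.69% of these genes were higher without overlap. The other two, CLPP and YME1L1, overlapped. Levels were compared as log2(TPM + 1) with limma, a linear model across all tested genes, with p-values adjusted by the Benjamini-Hochberg method and a threshold of 0.05. By this test 6 of 9 members fell and 0 rose, also at an unadjusted p under 0.05, against 41.8% of all genes lower and 8.00% higher. The share of members was thus above the background for falls, but their median log2 fold change of -0.39 lay next to the median of -0.37 over all tested genes. Without metformin replicate 1, 8 of 9 members were lower and 0 higher, against 49.3% and 17.1% of all genes, the exception being YME1L1.

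TPM values have a fixed total, so the result was also taken relative to the median gene, after scaling each library by its median ratio to the mean library. This scaling moved the median of all genes to 0.020. CLPX and AFG3L2 remained lower and YME1L1 was higher, while the other 6 members did not pass the test. Over all genes 25.5% were lower and 23.4% higher on this scale. The scaled fit without metformin replicate 1 again gave 2 members lower and 1 higher, against 33.3% and 33.9% of all genes, with log2 fold changes of -0.67 for CLPX, -0.35 for AFG3L2 and 0.39 for YME1L1. On exon read counts edgeR called CLPX and AFG3L2 lower and 0 members higher (1 at an unadjusted p under 0.05), against 26.0% and 24.5% of all genes. Leaving out metformin replicate 1, edgeR called 3 lower, SPG7 added, and YME1L1 higher, against 34.3% and 32.4%. In bulk RNA, a smaller share of cells with the RNA of a gene and less of it in each cell cannot be told apart.

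**Figure D1:**
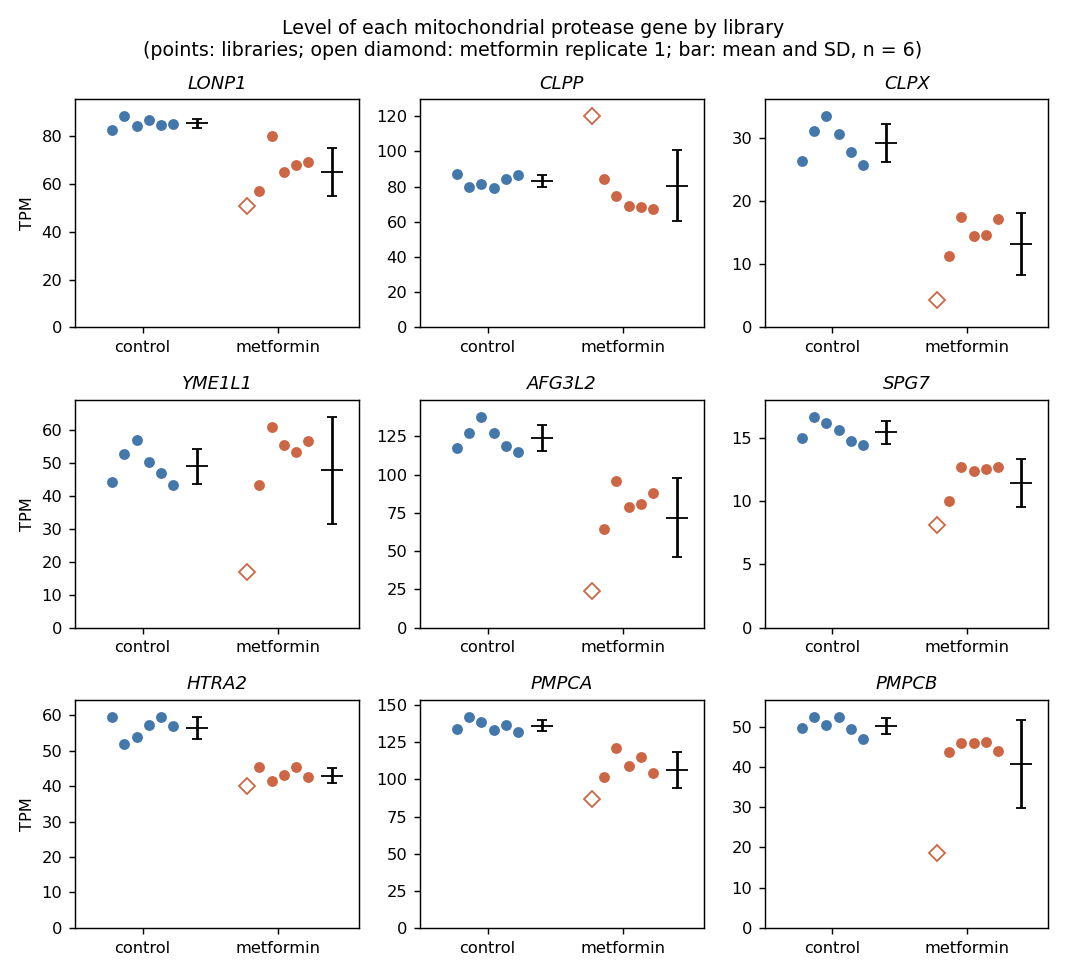
Level in TPM (vertical axis, from 0) of each of the 9 genes in the 6 control and 6 metformin libraries, 1 panel a gene, with the mean and SD beside the points and metformin replicate 1 as an open diamond. CLPX ranged from 25.6 to 33.3 TPM in control and from 4.34 to 17.5 TPM in metformin libraries, with no overlap, whereas the ranges of CLPP and YME1L1 overlapped.

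**Figure D2:**
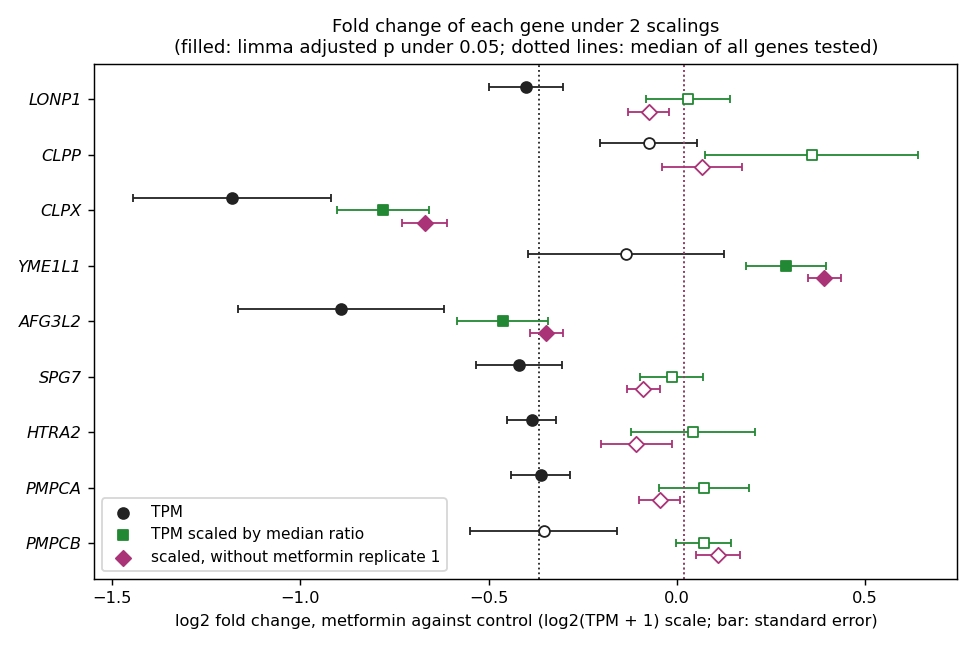
Log2 fold change (horizontal axis, with its standard error) of each gene for TPM, for TPM scaled by the median ratio and for the scaled values without metformin replicate 1, with the median of all tested genes as dotted lines and filled symbols for an adjusted p under 0.05. CLPX and AFG3L2 lay to the left of the median in all 3 fits, and YME1L1 to the right.

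ClpXP consists of a barrel of CLPP, the serine peptidase, and rings of CLPX, the ATPase that unfolds substrates and that also activates the first enzyme of heme synthesis. CLPX (ENSG00000166855, chromosome 15, 65148219 to 65185342, minus strand) had the largest fall of the 9. Its lowest, median and highest levels were 25.6, 29.1 and 33.3 TPM in control libraries. In metformin libraries they were 4.34, 14.5 and 17.5 TPM. Every metformin library lay below every control library, and metformin replicate 1 was the lowest. Its log2 fold change was -1.18 (SE 0.26, limma adjusted p = 0.0024), and it was -0.92 without metformin replicate 1. On the scaled values it was -0.78 (SE 0.12, limma adjusted p = 0.00018). On exon read counts, edgeR's quasi-likelihood test gave -0.82 (adjusted p = 0.00021).

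CLPP (ENSG00000125656, chromosome 19, 6361531 to 6370242, plus strand) did not follow its partner. Its lowest, median and highest levels were 79.5, 82.9 and 87.2 TPM in control and 67.2, 71.7 and 120 TPM in metformin libraries. The highest value belonged to metformin replicate 1, and 4 of the other 5 metformin libraries lay below the whole control range. CLPP had a log2 fold change of -0.074 (SE 0.13, limma adjusted p = 0.65). Without metformin replicate 1 it was -0.19 (limma adjusted p = 0.013), and relative to the median gene it was 0.36 (adjusted p = 0.31) with that library and 0.067 (adjusted p = 0.59) without it.

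The ratio of the partners does not depend on the scaling of a library. CLPX to CLPP was 0.352 ± 0.0491 in TPM in control cells (0.296 to 0.410) and 0.180 ± 0.0819 in metformin-treated cells (0.0362 to 0.256), so the groups did not overlap. The mean log2 ratio differed by -1.19 (exact two-sided permutation test, p = 0.00216, the smallest that 6 against 6 libraries can give; adjusted over the 3 partner ratios, 0.00325). Without metformin replicate 1 the difference was -0.77 (exact permutation p = 0.00433, the smallest for 6 against 5).

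The i-AAA protease YME1L1 (ENSG00000136758, chromosome 10, 27110112 to 27155266, minus strand) is known for cutting the fusion factor OPA1 and for degrading import and lipid transfer proteins. Its lowest, median and highest levels were 43.3, 48.5 and 57.1 TPM in control and 16.9, 54.4 and 61.0 TPM in metformin libraries. Metformin replicate 1 held the lowest value, and the other 5 metformin libraries lay within or above the control range. This gave a log2 fold change of -0.13 (SE 0.26, limma adjusted p = 0.69), and 0.13 (limma adjusted p = 0.22) without that library. YME1L1 was higher relative to the median gene, by 0.29 (SE 0.11, limma adjusted p = 0.040). On exon read counts the edgeR value was also 0.29 but missed the threshold (adjusted p = 0.052), and without metformin replicate 1 it was 0.38 (adjusted p = 1.1e-05).

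The m-AAA protease is built of AFG3L2 alone or of AFG3L2 with SPG7 (paraplegin), and variants of these genes are known in spinocerebellar ataxia and spastic paraplegia. AFG3L2 (ENSG00000141385, chromosome 18, 12328944 to 12377227, minus strand) had lowest, median and highest levels of 115, 123 and 138 TPM in control libraries. In metformin libraries they were 24.0, 79.7 and 95.8 TPM. The groups did not overlap, with metformin replicate 1 again the lowest. The log2 fold change was -0.89 (SE 0.27, limma adjusted p = 0.017), and -0.61 without that library. Relative to the median gene it was -0.46 (SE 0.12, limma adjusted p = 0.0070). Only 77.9% of its control exon reads and 76.2% of its metformin exon reads were assigned uniquely, so its level includes reads that also match elsewhere, and where they match was not tested.

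SPG7 (ENSG00000197912, chromosome 16, 89490719 to 89557768, plus strand) had lowest, median and highest levels of 14.4, 15.3 and 16.7 TPM in control and 8.15, 12.5 and 12.7 TPM in metformin libraries. The groups did not overlap. SPG7 had a log2 fold change of -0.42 (SE 0.11, limma adjusted p = 0.0088). On the scaled values it was -0.013 (adjusted p = 0.91). The edgeR value without metformin replicate 1 was -0.12 (adjusted p = 0.028), while with all libraries it was -0.037 (adjusted p = 0.73).

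The TPM ratio of AFG3L2 to SPG7 was 8.02 ± 0.302 in control cells (7.63 to 8.51) and 6.10 ± 1.62 in metformin-treated cells (2.95 to 7.55). Its size depends on the exon lengths that TPM divides by, 3160 bases for AFG3L2 and 13155 bases for SPG7. Exon reads themselves averaged 3134 for AFG3L2 and 1627.5 for SPG7 in control libraries. The mean log2 ratio differed by -0.45 (exact permutation p = 0.00216, adjusted over the 3 ratios 0.00325), and by -0.26 without metformin replicate 1 (exact permutation p = 0.00433). Counted on junction reads, the difference was -0.23 (exact permutation p = 0.056) and did not pass. The m-AAA subunits thus differed in their fall by TPM, less clearly so by spliced reads.

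**Figure D3:**
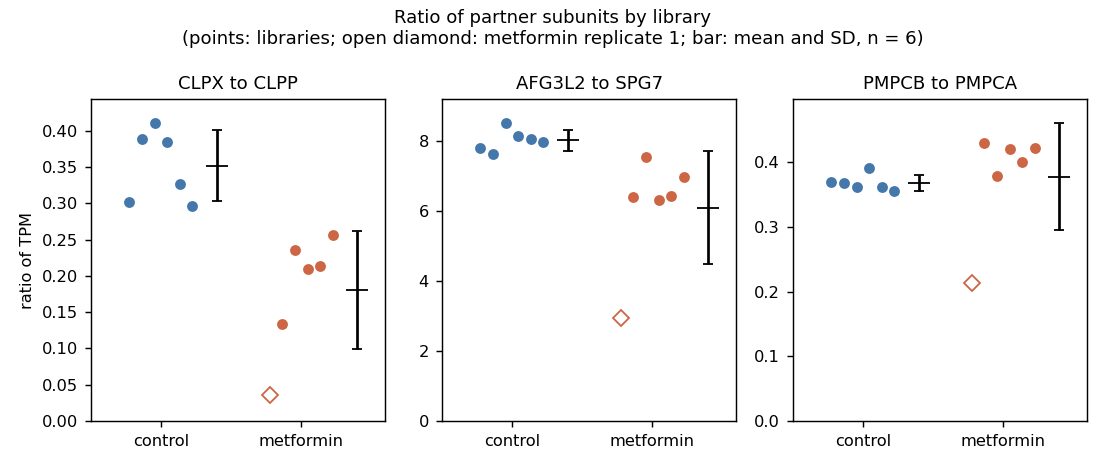
Ratio of TPM (vertical axis, from 0) of CLPX to CLPP, AFG3L2 to SPG7 and PMPCB to PMPCA in each of the 6 control and 6 metformin libraries, with mean and SD and metformin replicate 1 as an open diamond. The first 2 ratios did not overlap between groups, and the third lay between 0.355 and 0.392 in control libraries and between 0.380 and 0.430 in metformin libraries other than replicate 1, which was at 0.214.

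The processing peptidase is a pair of PMPCA and PMPCB, of which PMPCB carries the catalytic zinc site. PMPCA (ENSG00000165688, chromosome 9, 136410641 to 136423761, plus strand) had lowest, median and highest levels of 132, 135 and 142 TPM in control and 87.1, 106 and 121 TPM in metformin libraries. The groups did not overlap, and the log2 fold change was -0.36 (SE 0.078, limma adjusted p = 0.0020). PMPCB (ENSG00000105819, chromosome 7, 103297435 to 103329511, plus strand) had lowest, median and highest levels of 46.9, 49.999 and 52.4 TPM in control and 18.6, 44.9 and 46.2 TPM in metformin libraries. All its metformin libraries lay below the control range, 5 of them close together and metformin replicate 1 far below. PMPCB had a log2 fold change of -0.35 (SE 0.20, limma adjusted p = 0.15), and -0.15 (limma adjusted p = 0.0091) without that library. Relative to the median gene both subunits were at 0.072, with adjusted p-values of 0.64 for PMPCA and 0.44 for PMPCB. Those equal values rested on metformin replicate 1, since without it PMPCA was at -0.045 (adjusted p = 0.48) and PMPCB at 0.11 (adjusted p = 0.11).

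The PMPCB to PMPCA ratio was 0.368 ± 0.0127 in control and 0.378 ± 0.0825 in metformin-treated cells. The mean log2 ratio differed by 0.00075 (exact permutation p = 1). Without metformin replicate 1 it differed by 0.16 (exact permutation p = 0.00866, also adjusted over the 3 ratios). On junction reads, with all 12 libraries, the difference was 0.28 (exact permutation p = 0.030). Metformin replicate 1 entered this value with 343 junction reads of PMPCA and 524 of PMPCB. The other metformin libraries had 1274 to 1572 of PMPCA and 1159 to 1286 of PMPCB. The junction difference without metformin replicate 1 was not tested. The size of a difference between these subunits thus depended on metformin replicate 1 and on the kind of read.

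LONP1, which degrades oxidised matrix proteins and the DNA-packaging factor TFAM, lies on chromosome 19 (ENSG00000196365, 5691834 to 5720572, minus strand). Its lowest, median and highest levels were 82.9, 85.1 and 88.4 TPM in control and 51.0, 66.6 and 80.2 TPM in metformin libraries. The groups did not overlap, and the log2 fold change was -0.40 (SE 0.098, limma adjusted p = 0.0044). LONP1 scaled by the median ratio stood at 0.031 (SE 0.11, adjusted p = 0.84), and at -0.075 without metformin replicate 1.

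HTRA2, a serine protease of the intermembrane space that binds inhibitor of apoptosis proteins once released to the cytosol, lies on chromosome 2 (ENSG00000115317, 74529377 to 74533348, plus strand). Its lowest, median and highest levels were 51.9, 57.2 and 59.6 TPM in control and 40.0, 42.8 and 45.5 TPM in metformin libraries. By TPM the groups did not overlap, the metformin libraries had the smallest spread relative to their level of all members, and metformin replicate 1 lay near the others. By unique exon reads it did not, with 315 against 551 to 620 in the other metformin libraries. The log2 fold change was -0.39 (SE 0.066, limma adjusted p = 0.00037). After scaling it was 0.044 (adjusted p = 0.84), but -0.11 without metformin replicate 1 (adjusted p = 0.33) and -0.11 by edgeR on unique exon reads (adjusted p = 0.29). Unique exon reads were 77.2% of the exon reads in control libraries on average, and 43.9% in metformin replicate 1.

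Reads in introns can come from RNA that is not yet spliced or from genes that overlap, and their source was not tested. They were a separate readout of the same genes. In edgeR's quasi-likelihood test of intron read counts, 4 of 9 members were higher and 1 lower, against 31.3% and 30.2% of the 11118 genes tested. CLPX, PMPCA, HTRA2 and PMPCB were higher, and AFG3L2 was lower. Without metformin replicate 1 YME1L1 was also higher (0.35, edgeR adjusted p = 0.022) and SPG7 also lower (-0.27, adjusted p = 0.029), against 36.4% of genes higher and 38.0% lower.

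CLPX had 28 to 43 intron reads in control libraries (median 31.5) and 37 to 108 in metformin libraries (median 82.5). Its exon reads meanwhile went from 1048 to 1245 down to 158 to 582. Intron reads were 2.35% to 3.83% of all its reads in control and 9.01% to 19.0% in metformin libraries, with no overlap. The log2 fold change of intron reads was 1.46 (edgeR adjusted p = 7.1e-06), opposite in sign to that of its exon reads. Both calls in these directions were made for CLPX alone of the members and for 1.88% of the 9917 genes tested on both. The log2 ratio of intron to exon reads rose by 2.46 (SE 0.23, limma adjusted p = 8.5e-06), and by 2.35 without metformin replicate 1. No gene annotated in GENCODE 29 overlaps CLPX.

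AFG3L2 went the other way. Its intron reads were 64 to 116 in control (median 93) and 15 to 44 in metformin libraries (median 33.5), with no overlap and a log2 fold change of -1.26 (edgeR adjusted p = 4.0e-06). Its intron to exon ratio changed by -0.58 (SE 0.23, limma adjusted p = 0.062), by -0.68 (adjusted p = 0.0067) without metformin replicate 1, and by -0.72 (adjusted p = 0.013) after centring each library on its median gene. TUBB6 lies on the opposite strand over 15377 bases of AFG3L2, with a mean of 382 TPM in control and 251 TPM in metformin libraries. Relative to the median gene TUBB6 was at -0.17 (limma adjusted p = 0.28), and its part in the intron reads of AFG3L2 was not tested. CLPX and AFG3L2, which both fell on exon reads, thus had opposite changes of intron reads.

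PMPCA had 100 to 152 intron reads in control libraries (median 123) and 22 to 313 in metformin libraries (median 278). Metformin replicate 1 held the 22, and the other 5 metformin libraries, at 169 or more, lay above every control. The log2 fold change was 1.11 (edgeR adjusted p = 0.0027). The intron to exon ratio of PMPCA was 1.04 higher (limma adjusted p = 0.13), and 1.58 higher (limma adjusted p = 2.9e-06) without that library.

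HTRA2 had 28 to 47 intron reads in control (median 32.5) and 18 to 91 in metformin libraries (median 56), a log2 fold change of 1.04 (edgeR adjusted p = 0.00046). All metformin libraries but replicate 1 lay above the controls. Its intron to exon ratio rose by 1.16 (limma adjusted p = 0.014). On the opposite strand AUP1 overlaps HTRA2 by 563 bases and LOXL3 by 935 bases. Reads in such an overlap, of introns or of exons, cannot be told apart without counting by strand. The part of these genes in the level of HTRA2 was not tested. Relative to the median gene AUP1 was at 0.49 (limma adjusted p = 0.023) and LOXL3 at -0.32 (adjusted p = 0.0080).

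PMPCB had 138 to 194 intron reads in control (median 168) and 66 to 319 in metformin libraries (median 256), a log2 fold change of 0.76 (edgeR adjusted p = 0.00031). Counted on unique intron reads it was 0.39 (edgeR adjusted p = 0.032). The intron to exon ratio rose by 0.85 (limma adjusted p = 0.0070). DNAJC2, on the opposite strand, overlaps PMPCB over 17038 bases and was itself higher relative to the median gene, by 0.74 (limma adjusted p = 1.3e-06). Its part in the intron reads of PMPCB was not tested.

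By intron to exon ratio 4 of 9 members rose and 0 fell, against 18.8% higher and 13.6% lower of 10363 genes, and at an unadjusted p under 0.05 AFG3L2 was lower. The fourth was LONP1, at 0.48 (limma adjusted p = 0.036). That call was lost when any of 8 single libraries was left out, with adjusted p-values up to 0.089, and when libraries were centred (0.34, adjusted p = 0.063). In the centred fit CLPX, HTRA2 and PMPCB were higher and AFG3L2 lower, against 17.1% and 19.9% of genes. Intron reads of CLPP, YME1L1 and SPG7 gave log2 fold changes of -0.34, 0.21 and -0.35, with edgeR adjusted p-values of 0.14, 0.46 and 0.062. SPG7 had the highest share of intron reads of the 9, with 31.4% ± 4.76 in control and 29.5% ± 9.04 in metformin libraries. The antisense gene AC092123.1 overlaps SPG7 by 12444 bases, and its part in these reads was not tested.

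**Figure D4:**
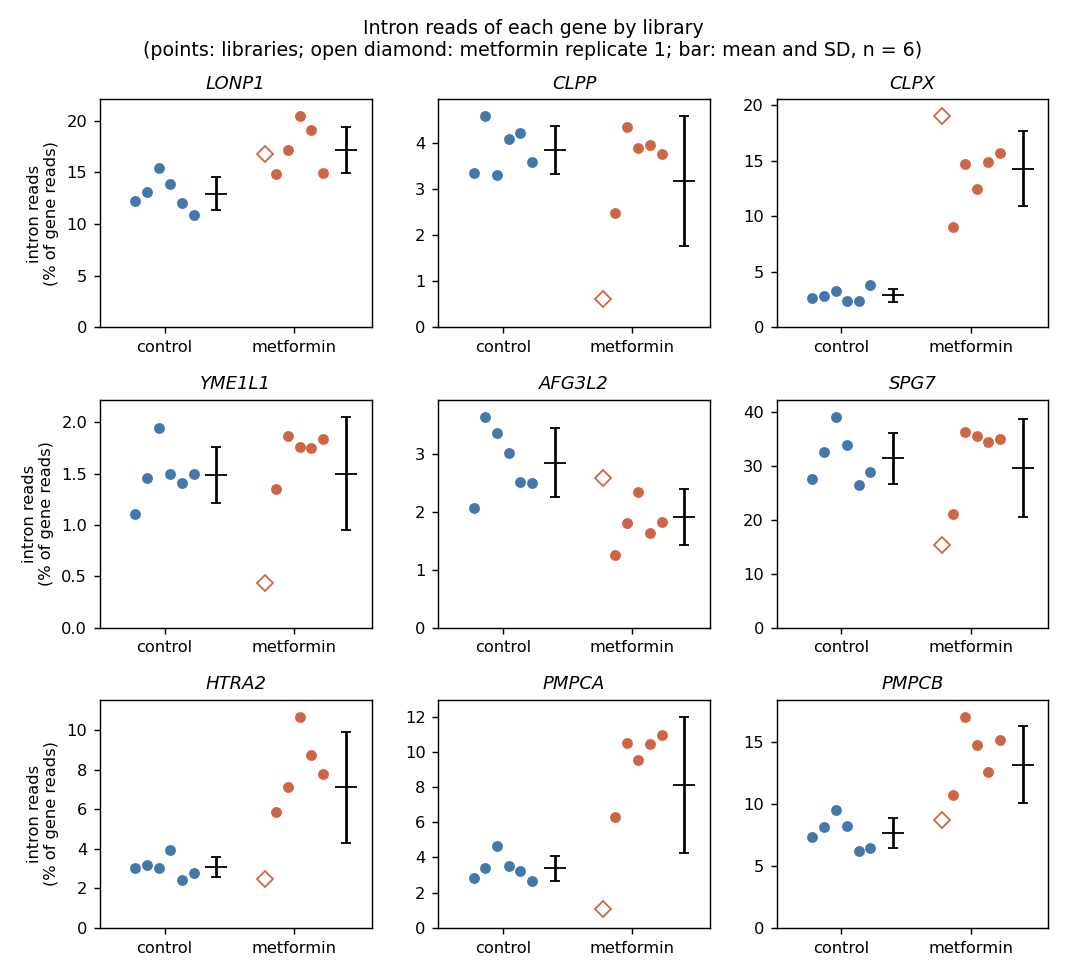
Intron reads as a percent of all reads of the gene (vertical axis, from 0) for each of the 9 genes in the 6 control and 6 metformin libraries, with mean and SD and metformin replicate 1 as an open diamond. The groups of CLPX did not overlap (2.35% to 3.83% against 9.01% to 19.0%), and for PMPCA and HTRA2 replicate 1 alone of the metformin libraries lay inside or below the control range.

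The share of exon reads that span a junction depends on splicing and on where reads fall along the exons. It did not pass the test for any member (0 of 9 by limma, also at an unadjusted p under 0.05). Of 10426 genes 0.326% passed. In metformin replicate 1 the share was 8.375% for SPG7, 16.3% for AFG3L2 and 16.5% for PMPCA. In the other metformin libraries it was 33.0% to 40.7% for SPG7, 49.4% to 57.6% for AFG3L2 and 50.7% to 59.6% for PMPCA. Without that library and with libraries centred on their median gene, SPG7 was lower by a log2 change of -0.16 (limma adjusted p = 0.013), a fit in which 5.07% of genes passed in either direction. PMPCB was the exception in metformin replicate 1, since its share ranged from 75.4% to 77.0% over all metformin libraries. Its control libraries lay at 77.1% to 79.4%, so the groups did not overlap, although the change of -0.040 on the log2 scale did not pass (limma adjusted p = 0.67). In metformin replicate 1 the intron share of gene reads was 1.05% for PMPCA and 15.3% for SPG7, the lowest of their metformin libraries. For AFG3L2 it was 2.58%, the highest. What lowered the junction share in that library was not tested.

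**Figure D5:**
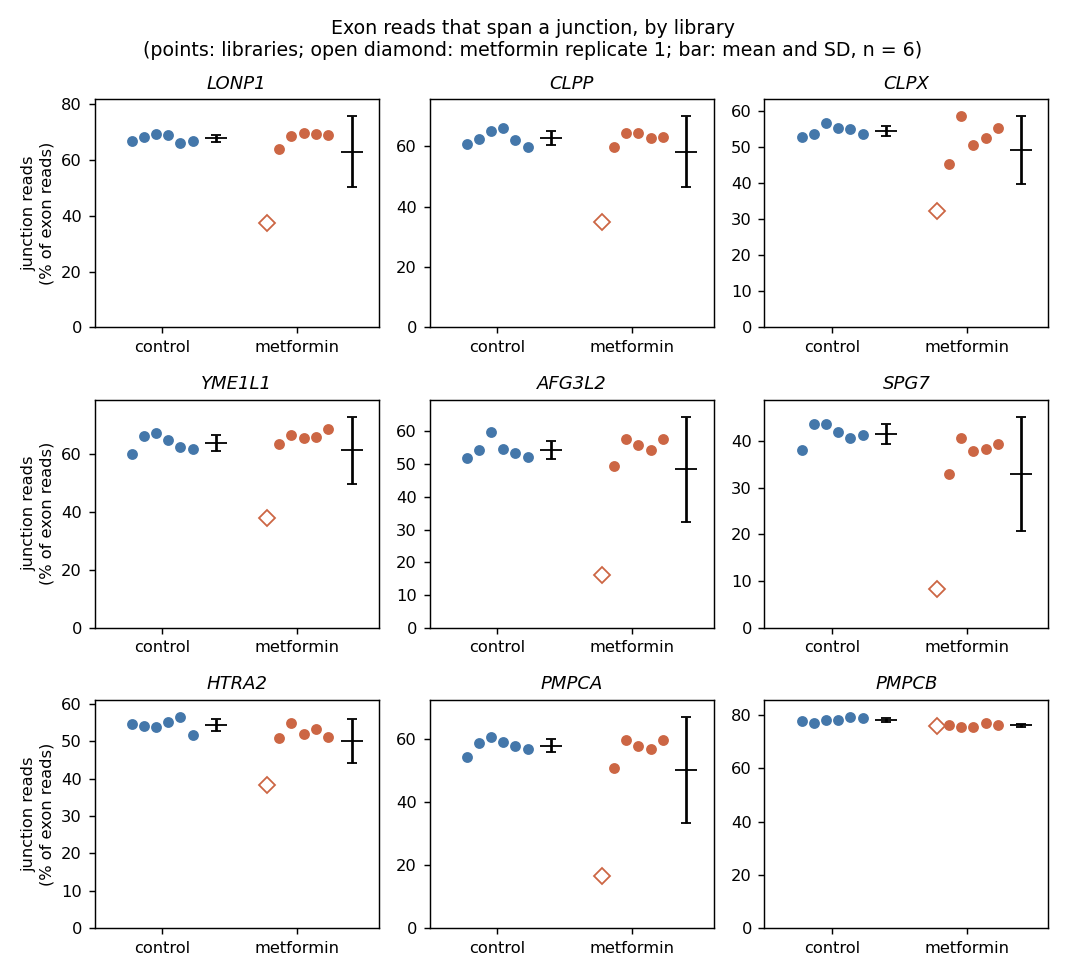
Junction-spanning reads as a percent of exon reads (vertical axis, from 0) for each of the 9 genes in the 6 control and 6 metformin libraries, with mean and SD and metformin replicate 1 as an open diamond. Metformin replicate 1 was the lowest metformin library for 8 genes, at 8.375% for SPG7, and PMPCB was the exception.

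Other genes of mitochondrial protein quality control were counted in 5 lists, with 40 of 42 genes tested. Counts in these lists are to be read against all genes, of which 41.8% fell and 8.00% rose on TPM (median -0.37), and 25.5% fell and 23.4% rose relative to the median gene. Of 11 other mitochondrial peptidases 7 fell and 0 rose by limma on TPM (median log2 fold change -0.58), and relative to the median gene 4 fell and 2 rose. The largest fall was that of METAP1D, a methionine aminopeptidase, from 17.5 ± 1.02 to 6.81 ± 2.21 TPM (-1.31, SE 0.21, limma adjusted p = 0.00025). NLN, the oligopeptidase neurolysin, went from 23.4 ± 3.64 to 14.1 ± 5.42 TPM (-0.80, adjusted p = 0.031). Both also fell relative to the median gene, by 0.93 and 0.40.

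Of 6 partners and regulators of the proteases 2 fell, the disaggregase CLPB (-0.35, limma adjusted p = 0.024) and the inner membrane scaffold STOML2 (-0.15, adjusted p = 0.022). Relative to the median gene 0 of the 6 fell and 1 rose, which was neither CLPB (0.056, limma adjusted p = 0.71) nor STOML2 (0.28, adjusted p = 0.21). Of 9 matrix chaperones 2 fell and 1 rose, and relative to the median gene 1 fell and 4 rose. DNAJA3, a J-domain co-chaperone, went from 111 ± 8.33 to 50.1 ± 15.4 TPM (-1.20, limma adjusted p = 0.00052). The other fall was that of HSCB, a co-chaperone of iron-sulfur cluster transfer, from 22.8 ± 1.85 to 18.4 ± 2.38 TPM (-0.30, limma adjusted p = 0.025), with overlapping groups and 0.12 relative to the median gene (adjusted p = 0.66). GRPEL1, the nucleotide exchange factor of mitochondrial HSP70, went from 78.7 ± 1.68 to 91.8 ± 8.68 TPM (0.21, adjusted p = 0.029). Among 11 tested substrates known for these proteases, TIMM17A, an import channel subunit degraded by YME1L1, was the single call on TPM (-0.42, limma adjusted p = 0.00058). Relative to the median gene it stood at 0.012 and 4 other substrates were higher.

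Of the 3 stress transcription factors tested 1 rose and 1 fell on TPM, and relative to the median gene 2 rose and 0 fell (list median 0.30). ATF4, which drives genes of the mitochondrial stress response, rose from 355 ± 9.39 to 940 ± 98.7 TPM (1.39, SE 0.075, limma adjusted p = 2.4e-08). DDIT3, the partner factor CHOP, went from 14.3 ± 2.24 to 9.99 ± 1.64 TPM (-0.48, limma adjusted p = 0.0077), a fall that did not pass relative to the median gene (-0.067). No protease gene of the 9 rose beside ATF4 on TPM, and YME1L1 alone of them was higher on the scaled values.

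Over the 12 libraries the levels of the members followed each other to different degrees. On log2(TPM + 1) CLPX and AFG3L2 had a Pearson correlation of 0.98, the highest of the 36 pairs, and CLPP and YME1L1 had -0.91, the lowest. The points share both group membership and metformin replicate 1, so these values are descriptions. The genes most like CLPX were WDR3, GEMIN5 and TBC1D31, each at 0.998 or above. HMMR was most like AFG3L2 (0.998) and NCOA4 most like YME1L1 (0.998). TAF10 was most like CLPP (0.980) and DDX51 most like LONP1 (0.985).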

How the data were processed

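RNA of 12 LN229 libraries was sequenced from an mRNA kit, and the authors deposited 1 table per library. TPM values, as the authors made them, add up to an equal total per library. RPKM values were also deposited, reads per exon length and library size, and served as an alternative. The deposited counts, for exons, introns and junctions, hold whole reads without normalization. The deposited fractions, computed by the authors as shares of reads, were recomputed from the counts. Aligner, counter and strand setting: not given in the sources used here. GRCm38 and mm10 are the builds in the submitters' processing notes, whereas 21377 of 21462 gene IDs belong to the human GENCODE 29, where 5 of 9 members have the same start and end. Coordinates of genes are those of the files.

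Rows sharing a symbol were summed, and the 11306 genes averaging 1 TPM or more were tested. Following the tool, unit and threshold in the study's methods, log2(TPM + 1) was fitted by limma 3.58.1 (R 4.3.3, trended prior, adjusted p under 0.05), so that fold changes of low genes are understated. edgeR 4.0.16 with TMM scaling was run on exon reads, and on intron reads of genes with a mean of at least 10. Log2 ratios of intron or junction reads to exon reads, with 0.5 added to both counts, were tested by limma for genes with means of at least 10. Their prior followed the mean log2 count of the rarer reads, a change made after a prior on the ratio itself had failed on simulated data. Partner ratios were tested by exact permutation over libraries. DESeq2 1.42.0, other scalings and filters, and single libraries left out were alternatives. Unique reads, library-centred ratios and the scaled and exon-read fits without metformin replicate 1 were alternatives chosen after seeing the data. Python 3.11.15 with pandas 2.3.3, scipy 1.17.1 and matplotlib 3.10.9 was used for tables and figures. All members were named, as were the 2 genes of each list with the largest called change in its main direction and the largest called the other way, and up to 3 genes most like a member. Both the members and the lists were chosen with earlier results of these data known.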

Additional observations from a re-analysis of the deposited data

Results flagged for a closer look

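Each group of 6 libraries was searched for a highest or lowest library whose gap to the next exceeded the 95% critical value of Dixon's test. Among 60 groups 13 had such a library, of which 12 were metformin replicate 1, and chance flags about 1 in 20 groups, or 3. In metformin replicate 1 the junction-spanning share of exon reads stood apart for LONP1 (37.5%), CLPP (34.7%), YME1L1 (37.9%), AFG3L2 (16.3%), SPG7 (8.375%), HTRA2 (38.2%) and PMPCA (16.5%), all below the other metformin libraries. The same library stood apart with a high TPM of CLPP (120), a low TPM of PMPCB (18.6) and a low intron share of YME1L1 (0.437% of its reads, from 4 intron reads). It was also the lowest by far in the TPM ratios of AFG3L2 to SPG7 (2.95) and of PMPCB to PMPCA (0.214). The single case outside it was control replicate 3, where 59.7% of AFG3L2 exon reads spanned a junction, above the other controls.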

How the results depend on the processing

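Scaling and metformin replicate 1 moved most of what changed, and the causes were not tested. The fall of CLPX and AFG3L2 passed in the limma fits on TPM and on median-ratio scaled TPM, and in the edgeR and DESeq2 fits on exon reads. The members lower on TPM numbered 6, and 2 with median-ratio scaling, edgeR, edgeR without a filter, edgeR on unique reads or DESeq2. Members higher numbered 0, and 1 with median-ratio scaling, array weights, DESeq2 or unique reads, and on exon reads 1 without metformin replicate 1. Array weights raised all genes called from 5630 to 8598. List genes lower went from 13 to 5 (median ratio), 6 (edgeR, edgeR without a filter, unique reads, DESeq2) and 20 (array weights), and list genes higher from 2 to 13 (median ratio, unique reads), 14 (edgeR), 11 (no filter), 17 (DESeq2), 5 (quantile) and 8 (array weights). Members lower on intron reads numbered 1, and 3 at a mean of 50 reads and 2 with DESeq2 or unique reads. Members lower by intron to exon ratio went from 0 to 1 after centring, with or without metformin replicate 1, and by junction share from 0 to 1 after centring without it.

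Of the members below 0 on TPM, 6 had log2 fold changes above 0 with median ratio, edgeR and DESeq2, given in that order: LONP1 0.031, 0.016 and 0.047, CLPP 0.36, 0.51 and 0.55, YME1L1 0.29, 0.29 and 0.32, HTRA2 0.044, 0.051 and 0.082, PMPCA 0.072, 0.064 and 0.096, and PMPCB 0.072, 0.050 and 0.079. With edgeR without a filter they were 0.48 for CLPP, 0.27 for YME1L1, 0.025 for HTRA2, 0.039 for PMPCA and 0.030 for PMPCB, and on unique reads 0.022 for LONP1, 0.52 for CLPP, 0.29 for YME1L1, 0.070 for PMPCA and 0.050 for PMPCB. Quantile normalization gave 0.046 for CLPP, 0.16 for YME1L1 and 0.078 for SPG7, and array weights 0.24 for YME1L1. The intron to exon ratio of YME1L1 was -0.089, and 0.021 after centring without metformin replicate 1. On junction reads, metformin replicate 1 included, the AFG3L2 to SPG7 difference was -0.23 and that of PMPCB to PMPCA 0.28. The PMPCB to PMPCA difference on unique reads was -0.0043.

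With 1 library left out, all genes called ranged from 4994 to 7507, members lower from 6 to 8, members lower on intron reads from 1 to 2, members lower by intron to exon ratio from 0 to 1, list genes lower from 9 to 18 and list genes higher from 1 to 5. The log2 fold change of YME1L1 ranged from -0.22 to 0.13, its intron to exon ratio from -0.18 to 0.22, that of SPG7 from -0.27 to 0.056, and the PMPCB to PMPCA difference from -0.044 to 0.16.

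Both groups carry replicate numbers 1 to 6, but same-numbered libraries did not deviate together throughout (correlations from -0.64 to 0.73). Pairing by number was thus not shown, and so few libraries cannot decide it. With the number as a replicate block, list genes higher fell from 2 to 1, members higher by intron to exon ratio from 4 to 3 (LONP1 0.48, limma adjusted p = 0.076), and the CLPX to CLPP and AFG3L2 to SPG7 differences kept an exact sign-flip p of 0.031, the smallest for 6 pairs. In edgeR with the block, members lower numbered 2, list genes lower 4 and list genes higher 11, and log2 fold changes were 0.00010 for LONP1, 0.32 for CLPP, 0.27 for YME1L1, 0.013 for HTRA2, 0.042 for PMPCA and 0.044 for PMPCB.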
